A study of Homo sapiens with 12 samples.

Results

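H929 myeloma cells treated with the histone deacetylase (HDAC) inhibitor CHR-3996 alone were compared with untreated H929 cells across all genes on the array. The comparison rests on 6 of the 12 arrays in the series. These are the 3 arrays whose titles name CHR-3996 as the only drug (250 nM for 24 hours) and the 3 control arrays, chosen by their labels and not by any measured value. H929 is a human plasma cell myeloma line, and all arrays come from this single line grown in RPMI-1640 medium with fetal bovine serum. The other 6 arrays hold cells given the aminopeptidase inhibitor tosedostat (1 µM, also called CHR-2797) alone and cells given both drugs together, 3 arrays each, and they are used here only to ask whether a change under CHR-3996 was also seen with tosedostat present. The labels give the control cells no drug and do not say whether they received the solvent. Each sample is called a biological replicate and nothing further is said of how the replicates were grown, so the p-values cover the spread among these samples alone.

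HDACs remove acetyl groups from the lysines of histone tails, which lets chromatin close over promoters and enhancers. They act inside corepressor complexes such as NuRD, Sin3, CoREST and NCoR, and the REST-CoREST complex is known for keeping neuronal genes silent outside the nervous system. HDAC inhibitors leave histones and other proteins more acetylated, and they are known to raise some transcripts and lower others within hours.

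Expression was read on arrays that carry several short probes per transcript, summarised to 1 value per probe set on a log2 scale, where a difference of 1 is a factor of 2 in signal. Of 54613 probe sets other than controls, 36395 exceeded the 40th percentile of their array in 3 or more of 12 cases and were tested with limma. They stand for 15587 genes, each read from its brightest tested probe set, and a gene is called higher or lower when its limma p-value adjusted by the Benjamini-Hochberg method over all tested probe sets is under 0.05. Array medians were 5.0 to 5.06 in the untreated group and 5.24 to 5.29 under CHR-3996, and arrays within a group correlated at 0.978 to 0.983. This difference in medians matters for small changes. The median gene moved by 0.11 on the deposited scale, by -0.08 after quantile normalisation and by -0.25 when all arrays were set to the same median, so the calls with equal array medians, the scaling furthest from the deposited one, are given beside those of each gene group. The same weight of RNA (100 ng) was labelled from each sample, which means that values are relative to the RNA of a sample and that RNA per cell was not measured.

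CHR-3996 moved about as many genes as it left uncalled. Of the 15587 genes, 4946 (31.7%) were higher and 2805 (18.0%) were lower, and the remaining 7836 were not called. Larger changes leaned further upwards: 888 genes rose by at least 4-fold against 160 that fell by as much, and 116 rose by at least 16-fold against 2. The balance depended on scaling. Higher genes made up 63.8% of all calls on the deposited scale, 49.4% after quantile normalisation and 36.8% with equal array medians. On the last of these scales 3230 of the 15587 genes were higher and 5550 lower. Genes were also sorted by their level on the tosedostat arrays, which this comparison does not use. Cut into 5 groups of equal size, the lowest had 26.9% of genes higher and 3.78% lower, the middle had 44.4% and 15.7%, and the highest had 22.8% and 35.6%. The filter on low values, however, drew on the arrays of all groups. The lowest group spanned levels of 0.93 to 5.14, around the 40th percentile of the tosedostat arrays (4.43 to 4.47). Genes below the 40th percentile on all arrays without CHR-3996 were tested only if enough arrays with it lay above. The filter thus favoured rises in the lowest group, and its share in their excess over falls was not tested.

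The change was also seen on arrays that the comparison does not share. Cells given both drugs were set against cells given tosedostat alone, which differ by the same dose of CHR-3996 for the same time. Whether same-numbered arrays of CHR-3996 and of the combination vary together was not checked. There 4740 genes (30.4%) were higher and 2462 (15.8%) lower. Of the genes higher without tosedostat, 83.2% were also higher with it, and 86.8% the other way round. Of the genes lower without tosedostat, 72.6% were also lower with it, and 82.7% the other way round. Only 13 genes turned from higher to lower and 8 from lower to higher. Across the 15587 genes, which are not independent replicates, the log2 fold changes of both comparisons correlated at 0.908. The test of the difference between both changes called 43 genes, 38 of them (0.244% of all) with a negative and 5 (0.0321%) with a positive difference. Of the 38, 36 were higher under CHR-3996 without tosedostat, and in all 38 the mean of the tosedostat arrays was above that of the untreated arrays. The tested difference is built from the means of these groups, so both counts follow in part from the test that called the genes. Taking the replicate number as a block raised these calls from 67 to 189 probe sets with a negative and from 8 to 42 with a positive difference.

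**Figure D1:**
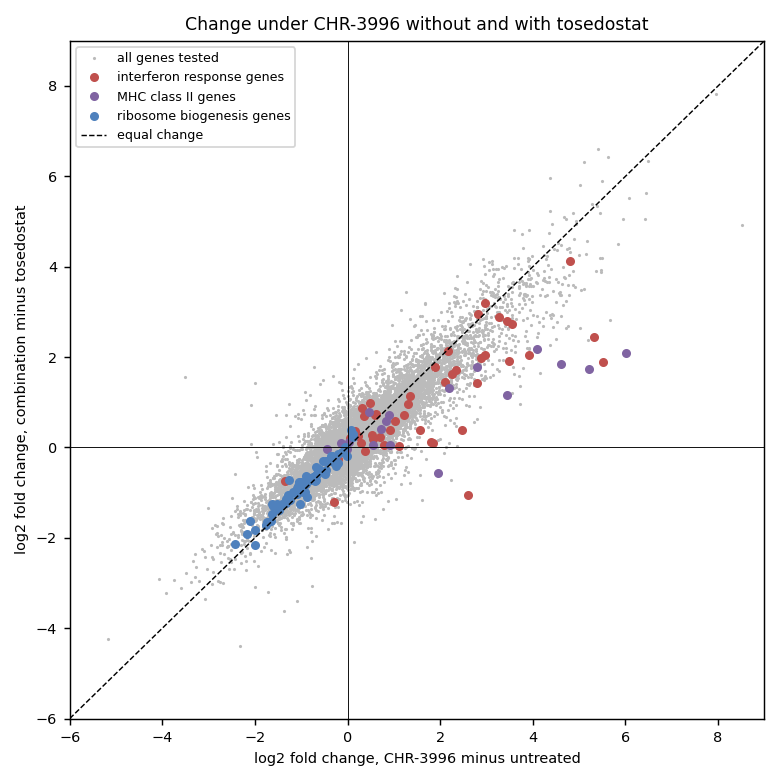
Each point is a gene, with its log2 change from untreated to CHR-3996 cells on the horizontal axis and from tosedostat to combination cells on the vertical axis; the dashed line marks equal change. Ribosome biogenesis genes (blue) lie along the line in the lower left, while several interferon response genes (red) and MHC class II genes (purple) lie below it on the right.

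Among genes whose mean lay above the 40th percentile in both groups, the largest rise was of *SELENOP*, the plasma carrier of selenium, which measured 4.65, 4.63 and 4.48 in untreated cells and 12.26, 12.86 and 12.50 under CHR-3996 (7.95 ± 0.22, limma adjusted p = 1.5e-08). *HSD11B1*, which makes active cortisol from cortisone, measured 4.46, 4.69 and 4.38 in untreated cells and 9.99, 11.04 and 10.30 under CHR-3996. *SYT11*, a synaptotagmin of vesicle trafficking, measured 5.17, 5.33 and 5.24 in untreated cells and 10.47, 11.08 and 10.52 under CHR-3996. *CYP1A1*, the xenobiotic-metabolising enzyme induced through the aryl hydrocarbon receptor, went from 5.08, 5.37 and 5.34 to 10.27, 10.62 and 10.41. The untreated arrays of *SELENOP* and *HSD11B1* lay close to the 40th percentile, on 2 of 3 arrays just below it for *HSD11B1*. In none of these 4 genes did the groups come within 4 units of each other, and the rises of the last 3 were 5.94 ± 0.31, 5.45 ± 0.16 and 5.17 ± 0.23 (log2 fold change ± SE, n = 3 arrays a group; limma adjusted p = 2.4e-07, 1.5e-08 and 9.1e-08). *VWA5A* (5.48), *SPRR3* of the epidermal cornified envelope (5.44), *ANXA1*, an annexin that restrains inflammation (5.38), *CCL4*, a chemokine (5.18), and *YPEL2* (5.15) rose by similar amounts. The rise of *ANXA1* was uneven, with 9.66, 11.66 and 10.67 under CHR-3996 against 4.98 to 5.63 in untreated cells. *RGS1*, a regulator of G proteins that is not among the genes ranked here, rose by more than *SELENOP* (8.52).

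The largest falls among such genes were of *CDC25A*, a phosphatase that starts S phase (-5.17), *UHRF1*, which guides DNA methylation to newly copied DNA (-4.08), *CXCR3* (-3.93), *TYMS*, which makes thymidylate (-3.74), and *DUS3L* (-3.60). *CXCR3*, a chemokine receptor, measured 8.61, 9.0 and 8.70 in untreated cells and 4.08, 5.24 and 5.20 under CHR-3996. *DUS3L*, a dihydrouridine synthase that modifies tRNA, measured 10.19, 10.18 and 10.21 in untreated cells and 6.06, 7.07 and 6.63 under CHR-3996. *GAL*, the neuropeptide galanin, went from 8.60, 8.84 and 8.42 to 4.59, 6.27 and 5.18. The falls were larger than the spread of the 3 arrays in either group and came to -3.93 ± 0.31, -3.60 ± 0.24 and -3.27 ± 0.42 (limma adjusted p = 2.2e-06, 9.5e-07 and 8.1e-05). *CTPS1*, which makes CTP, fell by 3.22 on the log2 scale and *CENPM*, a centromere protein, fell by 3.15. The 2 probe sets of *CXCR3*, of *DUS3L* and of *GAL* were all lower.

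A group of 339 genes passed from below the 40th percentile on all 3 untreated arrays to above it on all 3 CHR-3996 arrays and were called higher, against 69 that went the other way and were called lower. The 40th percentile lay between 4.41 and 4.63 on these 6 arrays. The deposited values carry no detection call, so a low value is not shown to be background, and a fold change from it depends on how such values were summarised. *CPE*, carboxypeptidase E of the neuroendocrine secretory granule, measured 0.58, 1.79 and 1.86 in untreated cells and 5.99, 8.43 and 6.77 under CHR-3996. *FRMD4B*, a scaffold of epithelial junctions, went from 1.57, 1.94 and 2.39 to 7.57, 7.48 and 7.76, and *DMP1*, a matrix protein of bone and dentine, from 0.00, 1.19 and 0.96 to 5.70, 7.42 and 6.53. The group of 3 treated arrays lay above all 3 untreated arrays in each. In the other direction *ANKLE1*, an endonuclease of blood-forming tissue, measured 7.61, 7.70 and 7.81 in untreated cells and 4.17, 4.47 and 4.62 under CHR-3996. *PITX1*, a homeobox factor of the hindlimb, went from 6.76, 6.66 and 5.89 to 2.96, 3.85 and 4.13, and *ZNF114*, a zinc finger gene, from 6.39, 6.32 and 6.45 to 3.82, 4.16 and 3.46. No array of one group reached into the other for these genes, and their log2 fold changes were -3.29 ± 0.24, -2.79 ± 0.35 and -2.57 ± 0.16 (limma adjusted p = 1.5e-06, 6.9e-05 and 6.7e-07).

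**Figure D2:**
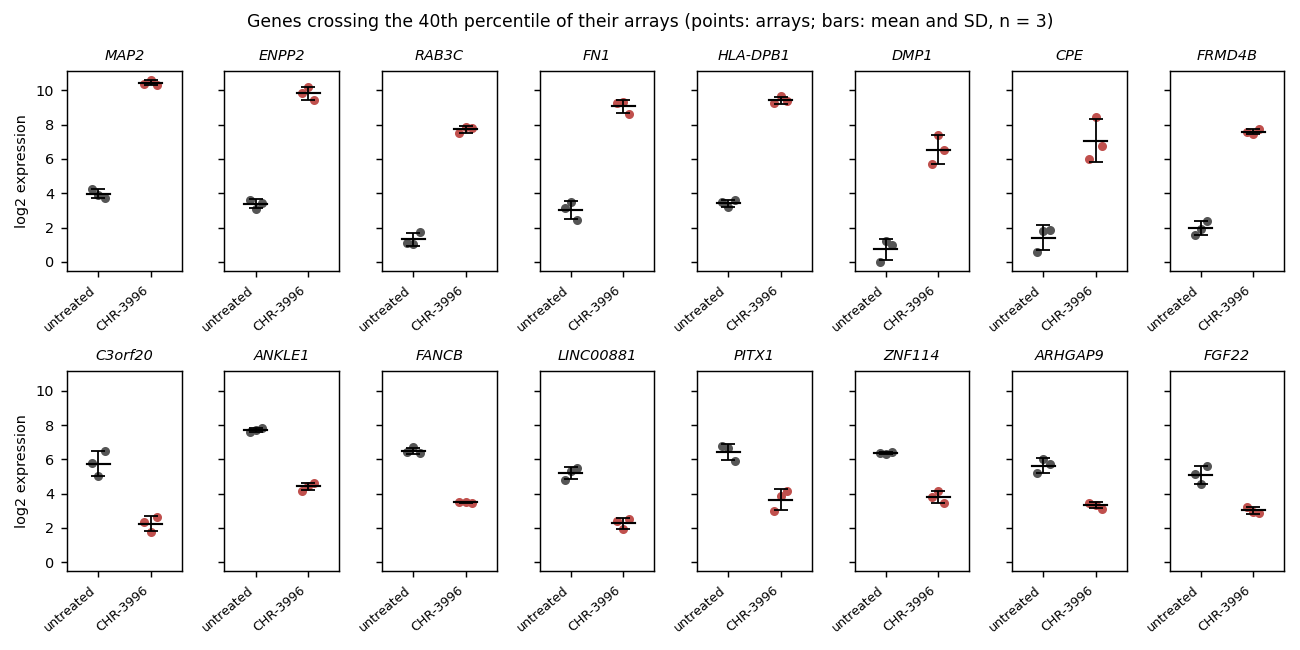
Log2 expression of the 8 genes with the largest rise from below to above the 40th percentile (top) and the 8 with the largest fall the other way (bottom), by array in untreated and CHR-3996 cells; points are arrays, bars the mean and SD of 3. The untreated and treated arrays do not overlap in any of the 16 genes, and *CPE* and *DMP1* show the widest spread under CHR-3996.

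**Figure D3:**
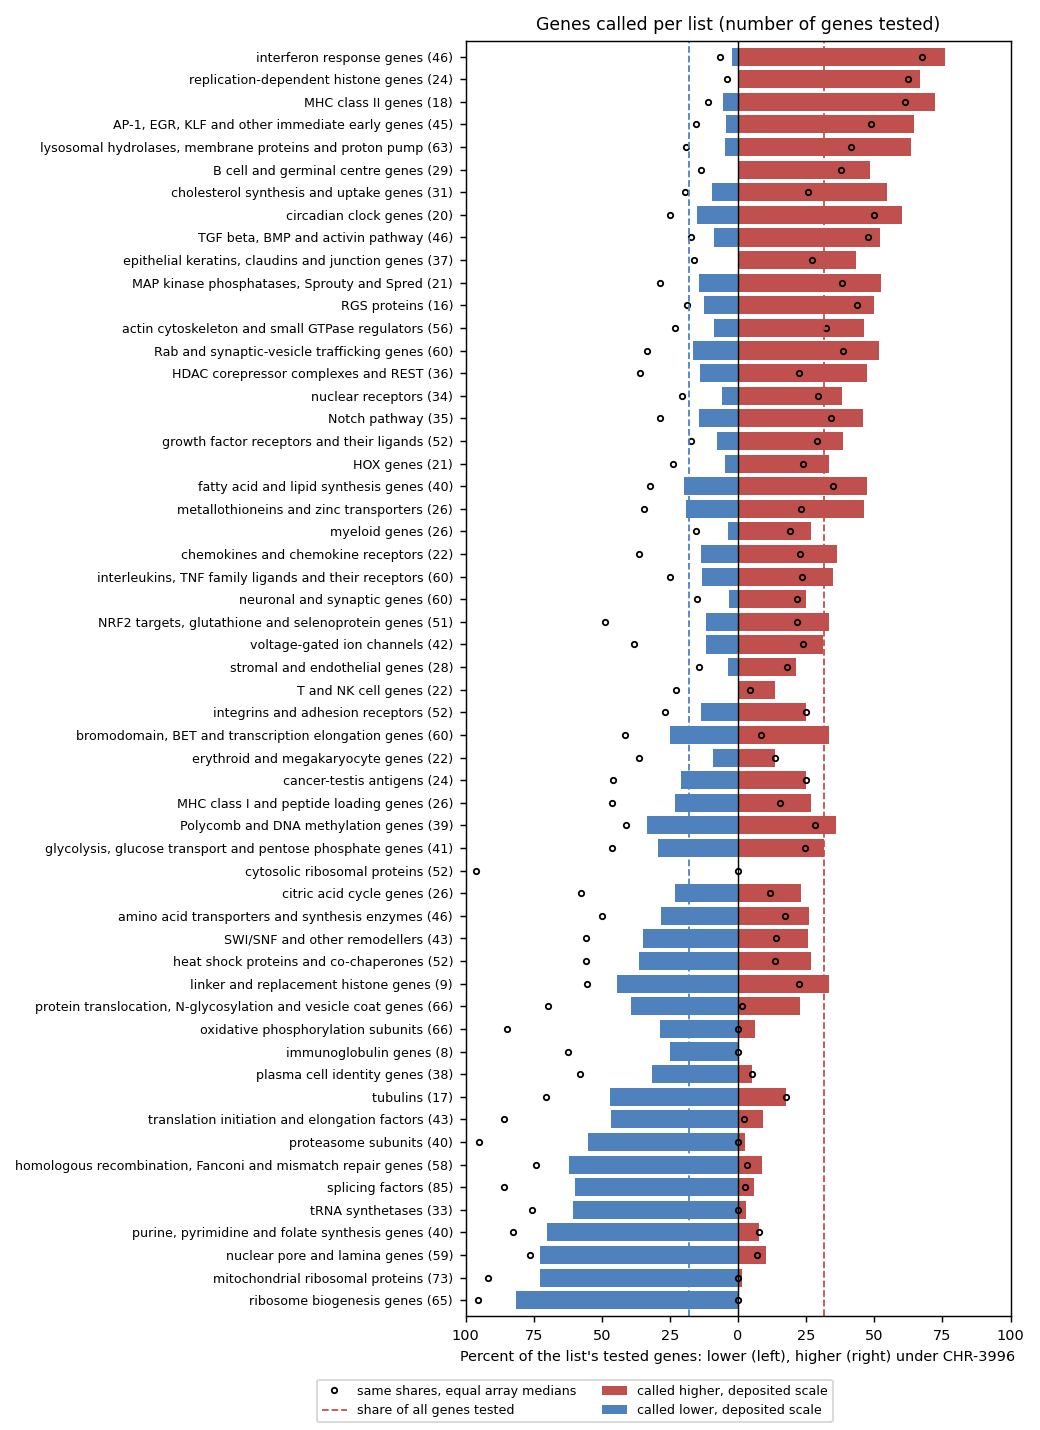
Share of tested genes called higher (red, right) and lower (blue, left) under CHR-3996 in each of 56 gene lists, ordered by the difference of both shares. Dashed lines give the shares over all genes on the deposited scale (31.7% and 18.0%). Open circles give the shares with equal array medians, for which no line over all genes is drawn. Interferon response, histone and MHC class II genes stand at the top and ribosome biogenesis and mitochondrial ribosomal protein genes at the bottom, while the open circle of cytosolic ribosomal proteins lies far left of their absent bars.

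Genes of the interferon response rose. Of the 46 tested, 35 (76.1%) were higher and 1 lower, beside 31.7% and 18.0% of all genes, and their median log2 fold change was 1.46 beside 0.11. Interferon-stimulated genes encode proteins that block viral RNA, sense it or tag proteins with ISG15, and most are switched on by STAT and IRF factors that bind the interferon-stimulated response element. *IFIT1*, which binds viral RNA lacking a mature cap, measured 4.93, 4.76 and 4.33 in untreated cells and 10.15, 9.36 and 10.48 under CHR-3996. *IFIT3*, its partner in the same complex, went from 5.60, 5.58 and 5.26 to 11.17, 10.29 and 11.54. The lowest treated array stood more than 4 units above the highest untreated array in both genes, and the changes were 5.33 ± 0.43 and 5.52 ± 0.34 (limma adjusted p = 2.8e-06 and 5.6e-07).

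The other measured IFIT genes, which lie close together on the same chromosome in RefSeq, also rose. They were added after their values were seen, to give the family whole. *IFIT2* measured 2.46, 2.79 and 3.33 in untreated cells and 5.93, 5.15 and 5.33 under CHR-3996, and *IFIT5* measured 4.24, 3.73 and 4.04 against 6.75, 6.78 and 6.84. Neither overlapped between the groups (log2 fold changes 2.61 ± 0.28 and 2.79 ± 0.26, limma adjusted p = 2.1e-05 and 6.8e-06). *IFI6*, a mitochondrial and endoplasmic reticulum protein that guards infected cells, went from 6.95, 6.89 and 6.50 to 10.19, 10.31 and 10.18. *DTX3L* and *PARP14*, a ubiquitin ligase and an ADP-ribosyltransferase that take part in interferon signalling, rose by 4.81 ± 0.40 and 3.56 ± 0.13, and *DDX60*, a helicase that assists viral RNA sensing, by 3.92 ± 0.31 (limma adjusted p = 3.2e-06, 3.6e-08 and 2.3e-06). The ubiquitin-like *ISG15* itself moved little, from 8.55, 8.56 and 8.30 to 9.16, 9.28 and 9.34, a rise of 0.79 ± 0.15 (limma adjusted p = 0.0012). *XAF1*, a proapoptotic gene and the only member called lower, fell by 1.35 on the log2 scale on its brightest probe set, while 2 other probe sets were not called. With equal array medians 31 members were higher and 3 lower, with a median of 1.10.

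The interferon genes are shown with their promoters because many of them hold the core of this element, 2 GAAA boxes parted by 2 bases of any kind. The promoters come from RefSeq (GRCh38.p14), 250 bases before to 50 after the start of each gene, and both strands were searched. The core was in 25 of 39 promoters of the list and in 2.90% of the 12411 promoters of all tested genes, and 3.10% of promoters of higher genes held it against 2.47% of lower genes. This pattern was added to the search after the values had been seen. Of the interferon list, the 4 higher genes with the largest change and a match before their start are shown, 120 bases each, with the core or its reverse complement in capitals. *IFIT3* is at chr10:89327820-89327939 (plus strand), *IFIT1* at chr10:89392465-89392584 (plus strand), *DDX60* at chr4:168318753-168318872 (minus strand) and *PARP14* at chr3:122680719-122680838 (plus strand).
IFIT3: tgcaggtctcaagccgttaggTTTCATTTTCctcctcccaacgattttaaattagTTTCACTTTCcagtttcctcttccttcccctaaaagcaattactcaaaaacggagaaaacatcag
IFIT1: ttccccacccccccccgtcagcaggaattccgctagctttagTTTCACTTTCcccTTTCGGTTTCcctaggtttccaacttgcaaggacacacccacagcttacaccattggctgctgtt
DDX60: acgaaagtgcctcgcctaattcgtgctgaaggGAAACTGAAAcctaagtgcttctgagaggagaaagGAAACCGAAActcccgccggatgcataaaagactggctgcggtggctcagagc
PARP14: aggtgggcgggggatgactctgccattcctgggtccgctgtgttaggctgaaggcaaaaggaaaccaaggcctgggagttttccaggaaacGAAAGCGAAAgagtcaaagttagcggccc
*IFIT3*, *IFIT1* and *DDX60* each hold 2 copies in these stretches and *PARP14* holds 1. A match describes the sequence and does not show that a factor was bound.

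MHC class II genes, which present peptides from endosomes to helper T cells and are normally silenced when a B cell becomes a plasma cell, rose. The brightest tested probe set of their master regulator *CIITA* did not. Of 18 tested genes 13 were higher and 1 lower (median log2 fold change 0.90). *HLA-DPB1*, the beta chain of HLA-DP, measured 3.48, 3.20 and 3.59 in untreated cells and 9.25, 9.67 and 9.38 under CHR-3996, and its partner *HLA-DPA1* measured 4.48, 4.87 and 4.41 against 9.68, 10.05 and 9.69. *HLA-DQB1* went from 5.10, 4.98 and 4.74 to 9.17, 9.91 and 9.59, and *HLA-DMA*, which helps load the peptide, from 5.25, 5.19 and 5.41 to 9.38, 9.30 and 9.46. The groups stayed at least 3.8 units apart in these genes, with log2 fold changes of 6.01 ± 0.26, 5.22 ± 0.22, 4.62 ± 0.24 and 4.09 ± 0.20 (limma adjusted p = 9.3e-08, 8.0e-08, 2.2e-07 and 1.5e-07). *HLA-DRA*, the alpha chain of HLA-DR, rose by 3.45 ± 0.40. *CIITA*, the coactivator that switches on class II promoters, measured 5.97, 6.0 and 6.29 in untreated cells and 5.89, 5.93 and 5.98 under CHR-3996, groups that overlapped with a difference of -0.15 ± 0.14 (limma adjusted p = 0.411). Whether this probe set follows the level of the *CIITA* transcript was not tested. *HLA-DOB*, called lower at -0.44 with overlapping arrays, was no longer called in 10 of the 14 alternative settings. Class II genes are close relatives, and probes of one may read another. With equal array medians 11 members were higher and 2 lower, and the median was 0.54.

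Class II promoters are known for a set of conserved boxes that ends in an inverted CCAAT box. CCAAT, on either strand, was in 11 of 14 promoters of the list and in 36.4% of all promoters. The 3 higher genes with the largest change and a match before their start are shown to compare its spacing, with CCAAT or its reverse complement in capitals. They are *HLA-DPB1* at chr6:33075857-33075976 (plus strand), *HLA-DQB1* at chr6:32666660-32666779 (minus strand) and *HLA-DMA* at chr6:32953098-32953217 (minus strand).
HLA-DPB1: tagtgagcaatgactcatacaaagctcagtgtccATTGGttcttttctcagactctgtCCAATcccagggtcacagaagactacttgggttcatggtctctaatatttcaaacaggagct
HLA-DQB1: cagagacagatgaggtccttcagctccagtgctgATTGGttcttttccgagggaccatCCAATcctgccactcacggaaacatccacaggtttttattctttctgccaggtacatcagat
HLA-DMA: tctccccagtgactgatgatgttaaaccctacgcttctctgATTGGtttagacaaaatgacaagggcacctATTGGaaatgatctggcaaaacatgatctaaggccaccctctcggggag
Each stretch holds 2 matches.

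Several interferon and class II genes changed less under CHR-3996 with tosedostat present. In the interferon list 27 genes were higher and 3 lower on the combination arrays against the tosedostat arrays, with a median of 0.72 beside 1.46 without tosedostat, and in the class II list 9 were higher and none lower with a median of 0.65 beside 0.90. The mean of the tosedostat arrays stood above that of the untreated arrays for 37 of the 46 interferon genes and 15 of the 18 class II genes. This count varied between lists and does not set these apart. It was 35 of 40 for proteasome subunits, 54 of 63 for lysosomal genes and 32 of 85 for splicing factors. None of those genes had a called difference between both changes. The difference between both changes was called for 4 interferon genes (*IFIT2*, *IFIT3*, *IFIH1* and *SAMD9L*, named because they are few) and 4 class II genes (*HLA-DPA1*, *HLA-DPB1*, *HLA-DQB1* and *HLA-DMA*). *HLA-DPB1* had a mean of 7.83 with tosedostat and of 9.92 with both drugs, a change of 2.09 beside the 6.01 without tosedostat, and the difference of -3.92 was called (limma adjusted p = 0.00287). *IFIT3* had means of 9.38 and 11.26, a change of 1.88 beside 5.52 (difference -3.63, limma adjusted p = 0.017). *IFIT2* had a mean of 7.41 with tosedostat and of 6.35 with both drugs, a change of -1.06 beside 2.61 (difference -3.67, limma adjusted p = 0.00552). For *IFIT1* the difference of -2.89 was not called (limma adjusted p = 0.105).

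**Figure D4:**
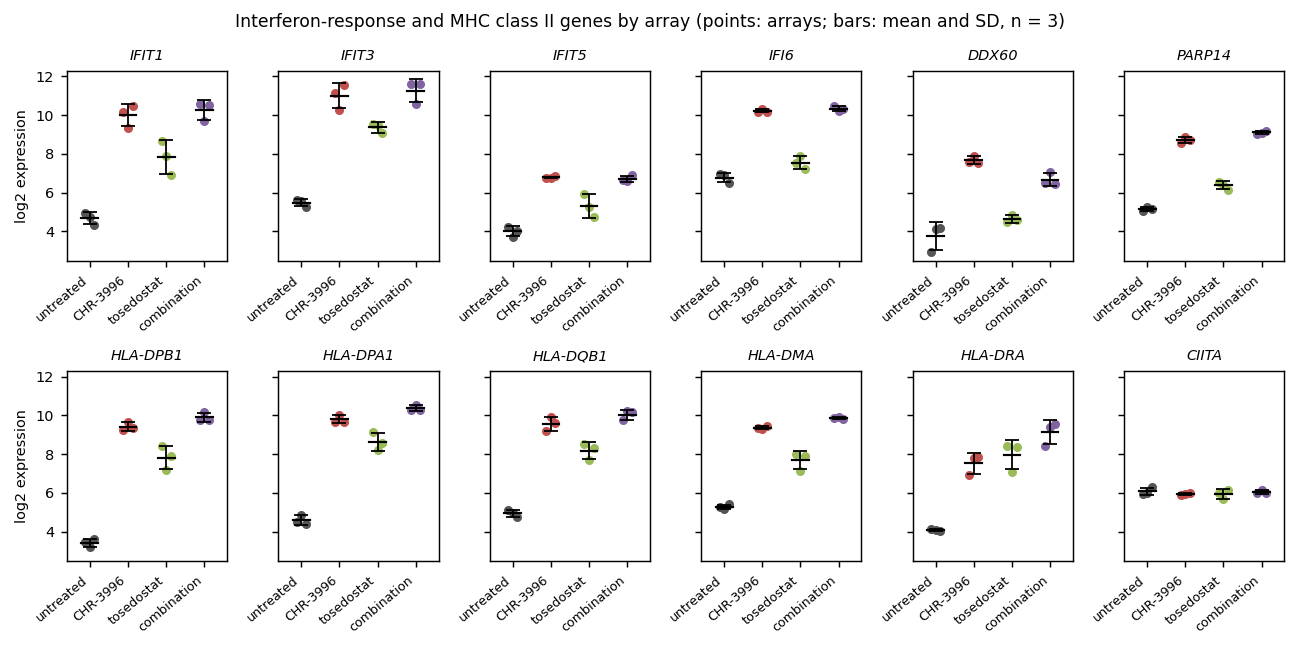
Log2 expression of 6 interferon-response genes (top) and 6 MHC class II pathway genes (bottom) in the 4 groups, by array, with the mean and SD of 3. The CHR-3996 arrays lie above the untreated arrays in every panel but that of *CIITA*, where all groups lie near 6, and the tosedostat arrays lie between the untreated and the combination arrays in most panels.

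Calls among B cell and germinal centre genes were upward, and those among plasma cell identity genes mostly downward. Of 29 tested B cell genes 14 (48.3%, beside 31.7% of all genes) were higher, none was lower and 15 were not called (median 0.59). Of 38 plasma cell genes 2 were higher, 12 (31.6%, beside 18.0% of all genes) were lower and 24 were not called (median -0.18). *BCL6*, the repressor that runs the germinal centre programme, measured 4.01, 3.62 and 3.39 in untreated cells and 8.25, 8.70 and 8.50 under CHR-3996. *EBF1*, an early B cell factor, went from 4.36, 4.43 and 4.05 to 8.21, 8.33 and 7.89, and *BACH2*, a repressor that delays plasma cell differentiation, from 6.52, 7.06 and 6.75 to 9.15, 9.97 and 9.61. The treated arrays lay above all untreated arrays, with rises of 4.80 ± 0.17, 3.86 ± 0.18 and 2.80 ± 0.26 (limma adjusted p = 3.3e-08, 1.4e-07 and 6.5e-06). *PAX5*, which defines B cell identity, measured 5.38, 7.72 and 6.09 under CHR-3996 against 5.0 to 5.27 in untreated cells. Its groups did not overlap, its treated arrays spread widely and it was not called (1.28 ± 0.53, limma adjusted p = 0.073).

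Of the plasma cell genes, *BHLHA15*, the secretory cell factor MIST1, measured 11.05, 10.96 and 10.72 in untreated cells and 8.40, 9.05 and 8.80 under CHR-3996. *SDC1*, the plasma cell surface marker CD138, went from 11.92, 12.07 and 12.11 to 9.87, 10.56 and 10.21. Both groups were apart by more than their spread (-2.16 ± 0.18 and -1.82 ± 0.16, limma adjusted p = 3.2e-06 and 4.6e-06), yet both genes stayed far above the array median. The factors that set up the plasma cell state changed less: *IRF4* moved by -0.29 and *PRDM1* by 0.13, and neither was called (limma adjusted p = 0.0874 and 0.573). *XBP1*, a further plasma cell factor, moved by -0.41 and was called lower (limma adjusted p = 0.04). An array reads the RNA of all cells together, so fewer cells with a transcript and less of it per cell cannot be told apart. With equal array medians the B cell list had 11 higher and 4 lower and the plasma cell list 2 higher and 22 lower.

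The line carried the transcripts its name calls for. Of 13 markers of plasma cells and of H929, 12 lay above the 40th percentile on all untreated arrays, with means from 8.89 (*CD38*) to 13.61 (*JCHAIN*). The exception was *IGHA1*, the IgA heavy chain, whose probe set naming this gene alone lay at 4.14. *NSD2* and *FGFR3*, the genes joined to the heavy chain locus by the t(4;14) translocation, measured 10.50 ± 0.14 and 9.21 ± 0.23 (SD, n = 3). With CHR-3996 *FGFR3* fell by 2.09 on the log2 scale (limma adjusted p = 2.1e-05). On its brightest probe set *NSD2* changed by 0.05 and was not called. The paper lists a probe set of this gene, under its names WHSC1 and MMSET, as higher under CHR-3996. Of 24 measured markers of B, T, NK, myeloid, erythroid, stromal and endothelial cells, 12 lay above the 40th percentile on all untreated arrays and 11 on all CHR-3996 arrays, a low threshold, with the highest untreated means in *PECAM1* (8.09) and *COL1A1* (7.39). *LYZ*, myeloid lysozyme, rose from 2.84 to 4.87 and *HBB*, beta globin, from 6.34 to 8.01 on average (limma adjusted p = 6.8e-04 and 0.00486).

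Some genes restricted to other tissues rose far. Among neuronal and synaptic genes 15 of 60 were higher and 2 lower, among voltage-gated ion channels 13 of 42 and 5, among keratin, claudin and junction genes 16 of 37 and none, and among HOX and related genes 7 of 21 and 1. On the deposited scale only the epithelial list (43.2%) and, narrowly, the HOX list (33.3%) had a share of higher genes above the 31.7% of all genes. The medians of the 4 lists (0.14, 0.17, 0.20 and 0.21) turned below 0 with equal array medians. There 13, 10, 10 and 5 genes were higher and 9, 16, 6 and 5 lower, beside 3230 higher and 5550 lower of all 15587 genes. On that scale the share of higher genes in the neuronal, channel and HOX lists was close to that of all genes, and in the epithelial list above it. After quantile normalisation 13, 12, 12 and 6 genes were higher, beside 4229 of all 15587 genes. The neuronal list then had a smaller share than all genes. *KCND2* and *KCNJ2*, potassium channels of excitable cells, rose by 4.39 and 4.25, *KIF5C*, a neuronal kinesin, by 3.21, *JUP*, the plakoglobin of desmosomes, by 3.22, and *HOXC10* by 3.24. *JUP* measured 3.84, 3.86 and 3.25 in untreated cells and 7.08, 7.11 and 6.42 under CHR-3996, and *CDH1*, the adherens junction protein E-cadherin, measured 3.98, 4.0 and 3.80 against 4.97, 6.03 and 5.66. Neither overlapped between the groups (3.22 ± 0.22 and 1.63 ± 0.22, limma adjusted p = 1.0e-06 and 1.2e-04). *SNAP25*, a synaptic fusion protein, measured 8.07, 7.55 and 7.89 in untreated cells and 7.95, 8.04 and 8.20 under CHR-3996, with overlapping groups (limma adjusted p = 0.261), and *KRT18* was not called (0.53 ± 0.28, limma adjusted p = 0.157).

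Lists of other blood and tissue lineages held smaller shares of higher genes on the deposited scale. In the T and NK cell list 3 of 22 genes were higher, in the myeloid list 7 of 26, in the erythroid and megakaryocyte list 3 of 22, in the stromal and endothelial list 6 of 28 and in the cancer-testis list 6 of 24, each a smaller share than the 31.7% of all genes. The numbers higher were 1, 5, 3, 5 and 6 with equal array medians, where 3230 of all 15587 genes were higher. On that scale the share in the cancer-testis list was slightly above that of all genes. The members that rose include *GATA3*, the helper T cell factor (2.30), *RHD*, the Rh blood group D antigen (4.30), *COL5A2*, a fibrillar collagen (3.79), and *TEX15*, a meiotic gene of the testis (1.79). *FCGR1A*, the high affinity IgG receptor of monocytes, was listed at 0.00, 0.00 and 0.25 in untreated cells and at 5.51, 5.28 and 4.56 under CHR-3996, and no fold change is given from values at 0.

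Among histone genes the replication-dependent ones, which are normally made in S phase, were higher. Of 24 tested genes 16 were higher and none lower, with a median of 2.01, and of the 38 on the array tested without the filter on low values 16 were higher and none lower. Of the 24, 15 were higher and 1 lower with equal array medians. *H2BC5*, a core histone H2B gene, measured 5.76, 6.92 and 5.82 in untreated cells and 10.97, 11.24 and 10.64 under CHR-3996. *H1-3*, a linker histone, measured 5.34, 4.59 and 3.76 against 8.94, 8.73 and 8.38, and *H2AC6*, a core histone H2A gene, 5.76, 6.48 and 6.10 against 10.15, 10.61 and 9.83. No treated array came near an untreated one (4.78 ± 0.38, 4.12 ± 0.41 and 4.09 ± 0.33, limma adjusted p = 2.4e-06, 1.3e-05 and 2.7e-06). The messages of these genes mostly end in a stem loop rather than a poly(A) tail, and labelling started from poly(A), so the values read their polyadenylated copies. What share of the messages was polyadenylated was not tested. Genes of this family are near copies of each other, which can share probes. Among 9 linker and replacement histone genes 3 were higher and 4 lower (2 and 5 with equal array medians). *H2AX*, the variant that is phosphorylated at DNA breaks and has both kinds of message, fell by 1.52 on the log2 scale (limma adjusted p = 1.8e-06), and *H2AJ*, a variant of senescent cells, rose by 1.89.

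Promoters of replication-dependent histone genes share a TATA box and CCAAT boxes. TATAAA was in 16 of 23 of these promoters and in 7.28% of all promoters, and CCAAT in 19 of 23 and 36.4%. The stretch just before the start of the same 3 genes is shown, with the TATA and CCAAT matches on either strand in capitals. They are *H2BC5* at chr6:26158001-26158120 (plus strand), *H1-3* at chr6:26234988-26235107 (minus strand) and *H2AC6* at chr6:26124052-26124171 (plus strand).
H2BC5: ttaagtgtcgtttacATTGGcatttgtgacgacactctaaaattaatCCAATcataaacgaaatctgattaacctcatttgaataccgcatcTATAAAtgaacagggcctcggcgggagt
H1-3: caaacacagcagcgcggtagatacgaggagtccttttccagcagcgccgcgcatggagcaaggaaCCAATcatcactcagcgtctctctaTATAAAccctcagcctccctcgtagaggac
H2AC6: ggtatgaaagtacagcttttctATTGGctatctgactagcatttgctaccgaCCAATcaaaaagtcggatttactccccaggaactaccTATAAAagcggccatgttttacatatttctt

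Genes that build ribosomes fell together, while the ribosomal proteins themselves did not. Of 65 ribosome biogenesis genes 53 (81.5%) were lower and none higher, beside 18.0% lower among all genes, with a median of -0.92, and the list kept 62 lower with equal array medians and 57 after quantile normalisation. *MRTO4*, which places the stalk of the large subunit, measured 10.35, 10.33 and 10.21 in untreated cells and 7.58, 8.08 and 7.94 under CHR-3996. *POLR1G*, a subunit of RNA polymerase I, measured 10.22, 10.21 and 9.88 against 7.90, 8.15 and 7.77, and *TSR1*, a factor of small subunit maturation, 10.92, 10.99 and 10.92 against 8.49, 9.05 and 8.98. The groups did not overlap (-2.43 ± 0.13, -2.16 ± 0.17 and -2.10 ± 0.14, limma adjusted p = 2.6e-07, 2.0e-06 and 8.9e-07). *FBL*, the fibrillarin that methylates ribosomal RNA, changed least of those named here, from 12.94, 13.02 and 13.04 to 12.44, 12.86 and 12.69 (-0.34 ± 0.12, limma adjusted p = 0.0333). With tosedostat present 50 of the 65 were lower, 49 of them lower in both comparisons.

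Of 73 mitochondrial ribosomal proteins 53 were lower and 1, *MRPS28*, was higher on the deposited scale but not with equal array medians. The median was -0.64 (67 lower with equal array medians), and the falls were led by *MRPL27* and *MRPL12* of the large subunit. *MRPL27* measured 10.86, 10.79 and 11.02 in untreated cells and 8.58, 9.18 and 9.02 under CHR-3996, and *MRPL12* measured 11.07, 10.99 and 10.94 against 8.98, 9.40 and 9.34, with no overlap in either. The 52 cytosolic ribosomal proteins with a tested probe set lay between -0.24 and 0.26, with a median of -0.02, and none was called on the deposited scale. *RPL3* measured 13.68, 13.79 and 13.72 in untreated cells and 13.76, 13.77 and 13.70 under CHR-3996, near the top of the array's range. This depended on scaling, since 50 of the 52 were lower with equal array medians (median -0.38), 1 was higher and 1 lower after quantile normalisation, and 5 were higher and 3 lower when all probe sets of a gene were averaged. On each scale the biogenesis list had the lower median, by 0.90 on the deposited scale.

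Other genes of protein synthesis also fell. Among tRNA synthetases 20 of 33 were lower and 1 higher (median -0.41; 25 and none with equal array medians), and the 5 largest falls were all of mitochondrial or phenylalanyl enzymes, from -1.14 for *WARS2* to -1.01 for *LARS2*, with *FARSA*, *SARS2* and *YARS2* between. Among translation initiation and elongation factors 20 of 43 were lower and 4 higher (37 and 1 with equal array medians). The 2 binding proteins of the cap factor eIF4E moved apart: *EIF4EBP1* fell by 1.86 on the log2 scale and *EIF4EBP2* rose by 0.99. Splicing factors were lower in 51 of 85 and higher in 5 (median -0.47; 73 and 2 with equal array medians). *LSM7*, of the U6 snRNP ring, measured 11.21, 11.20 and 11.20 in untreated cells and 9.10, 9.62 and 9.54 under CHR-3996, without overlap. Those that rose include *MBNL2* (2.09), *RBFOX2* (1.73) and *ESRP1* (0.93), regulators of tissue-specific splicing.

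**Figure D5:**
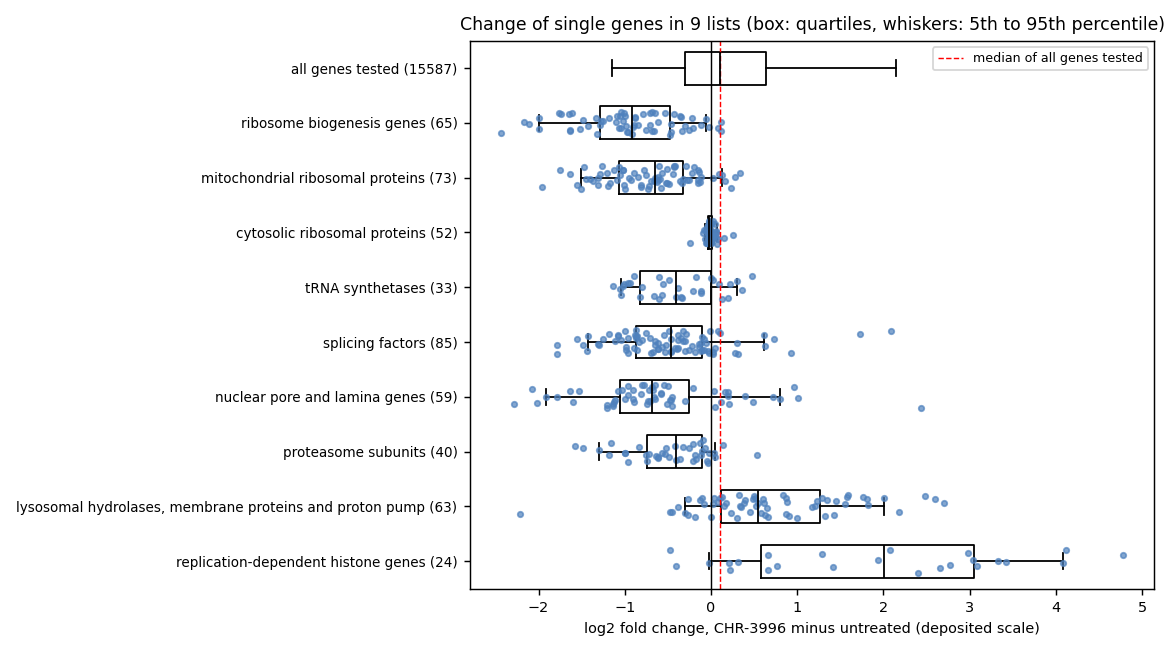
Log2 fold change of each gene under CHR-3996 in 9 lists beside all tested genes, with boxes at the quartiles and whiskers from the 5th to the 95th percentile; the dashed line is the median of all genes. Ribosome biogenesis genes centre at -0.92 and mitochondrial ribosomal proteins at -0.64, cytosolic ribosomal proteins form a narrow group at -0.02, and lysosomal and histone genes lie to the right.

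Many ribosome biogenesis genes carry the E-box CACGTG, the site known to be read by MYC and its partners. CACGTG, which reads the same on both strands and was added to the search after the values had been seen, was in 21 of 58 of their promoters, in 6 of 65 promoters of mitochondrial ribosomal proteins, in 2 of 46 promoters of cytosolic ribosomal proteins and in 9.53% of all promoters. It was in 12.8% of promoters of lower genes and in 9.12% of promoters of higher genes. The 3 lower biogenesis genes with the largest change and a match before their start are shown with the E-box in capitals: *POLR1G* at chr19:45406524-45406643, *IMP4* at chr2:130342647-130342766 and *UTP4* at chr16:69132529-69132648, all on the plus strand.
POLR1G: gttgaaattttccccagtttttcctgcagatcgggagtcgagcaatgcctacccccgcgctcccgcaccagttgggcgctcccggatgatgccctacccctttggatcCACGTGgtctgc
IMP4: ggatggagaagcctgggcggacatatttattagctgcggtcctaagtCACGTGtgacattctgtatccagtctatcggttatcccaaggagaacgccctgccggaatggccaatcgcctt
UTP4: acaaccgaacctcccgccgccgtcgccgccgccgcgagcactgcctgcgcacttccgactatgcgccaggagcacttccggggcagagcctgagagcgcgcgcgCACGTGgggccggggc
*IMP4* and *UTP4*, both of small subunit processing and named here for their promoters, fell by 1.61 and fell by 1.29 on the log2 scale.

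Genes of the lysosome, which also commonly carry CACGTG as the core of the element read by TFEB and TFE3, moved the other way. Of 63 lysosomal genes 40 (63.5%) were higher and 3 lower, with a median of 0.54. *FUCA1*, an enzyme that removes fucose, measured 8.70, 9.37 and 8.64 in untreated cells and 11.29, 11.93 and 11.59 under CHR-3996. *CTSF*, cathepsin F, measured 7.14, 6.95 and 6.39 against 9.32, 9.37 and 9.24, and *HGSNAT*, an enzyme of heparan sulfate breakdown, 6.09, 5.60 and 4.43 against 7.98, 8.19 and 7.74. The treated arrays lay above the untreated arrays in all 3 genes (2.70 ± 0.23, 2.49 ± 0.22 and 2.59 ± 0.39, limma adjusted p = 4.0e-06, 5.7e-06 and 2.4e-04). *TFEB* itself changed by 0.33 ± 0.17 with overlapping groups and was not called (limma adjusted p = 0.158). *ARSB*, arylsulfatase B, fell from 7.96, 7.63 and 7.35 to 5.28, 5.67 and 5.36 on its brightest probe set, while 2 other probe sets were not called. With equal array medians 26 members were higher and 12 lower (median 0.18).

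CACGTG was in 13 of 44 lysosomal promoters. The 3 higher genes with the largest change and a match are shown beside those of the biogenesis genes above, with CACGTG in capitals: *CTSF* at chr11:66568607-66568726 (minus strand), *CTSA*, cathepsin A, at chr20:45891215-45891334 (plus strand) and *NEU1*, a sialidase, at chr6:31862885-31863004 (minus strand).
CTSF: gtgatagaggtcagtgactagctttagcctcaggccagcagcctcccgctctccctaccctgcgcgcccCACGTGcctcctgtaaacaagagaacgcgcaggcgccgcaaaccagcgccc
CTSA: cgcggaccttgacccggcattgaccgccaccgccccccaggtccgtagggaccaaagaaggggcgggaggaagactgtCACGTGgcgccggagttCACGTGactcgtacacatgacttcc
NEU1: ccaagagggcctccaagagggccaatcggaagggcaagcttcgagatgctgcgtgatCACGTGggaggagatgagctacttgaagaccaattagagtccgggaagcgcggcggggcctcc
*CTSA* holds 2 copies. *CTSA* and *NEU1*, named for their promoters, rose by 0.91 and 0.87. Proteasome subunits, the other route of protein breakdown, had 22 of 40 lower and 1 higher (median -0.41; 38 and none with equal array medians). *PSMB5*, the catalytic subunit that bortezomib binds, measured 11.93 ± 0.07 in untreated cells and 10.44 ± 0.30 under CHR-3996 (SD, n = 3), a fall without overlap (-1.48 ± 0.14, limma adjusted p = 8.3e-06).

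Genes of the nuclear envelope and of DNA repair were also mostly lower. Of 59 nuclear pore and lamina genes 43 were lower and 6 higher (median -0.68; 45 and 4 with equal array medians). *RANBP1*, which helps release cargo exported through the pore, measured 12.19, 12.18 and 12.23 in untreated cells and 9.66, 10.11 and 9.98 under CHR-3996, and *RCC1*, which charges RAN with GTP, 9.94, 9.82 and 9.90 against 7.48, 7.88 and 8.08. In these carriers of the RAN cycle the groups were apart (-2.29 ± 0.13 and -2.07 ± 0.17, limma adjusted p = 3.0e-07 and 3.1e-06). The 5 largest of the 6 rises were of *SYNE2*, a nesprin that links the nucleus to the cytoskeleton (2.43), *SUN1*, an inner membrane protein that binds nesprins (1.01), *SYNE1*, another nesprin (0.96), *KPNA1*, an importin (0.80), and *LMNA*, the A-type lamin (0.72). The B-type lamin *LMNB2* fell by 1.78 on the log2 scale. Of 58 homologous recombination, Fanconi and mismatch repair genes 36 were lower and 5 higher (median -0.63; 43 and 2 with equal array medians). *BRCA1* measured 9.90, 10.02 and 9.95 in untreated cells and 7.18, 7.85 and 8.02 under CHR-3996, and *TIPIN*, which steadies stalled replication forks, 11.28, 11.20 and 11.33 against 8.70, 9.22 and 9.24, with no overlap. *FANCB*, of the Fanconi core complex, went from 6.43, 6.70 and 6.39 to 3.52, 3.50 and 3.48, below the 40th percentile of all treated arrays.

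E2F factors drive many such genes through TTTCCCGC. This site, on either strand, was in 5 of 52 promoters of the repair list, in 3.90% of promoters of lower genes, in 2.33% of higher genes and in 2.43% of all, and among genes lower by at least 4-fold it was in 11 of 123. The similar TTTGGCGC was in 2.08% of promoters of lower and 0.694% of higher genes. *LIG1*, the ligase that joins Okazaki fragments, fell by 1.68 on the log2 scale and is shown as an example. Its stretch at chr19:48170395-48170514 (minus strand) is shown with the site in capitals.
LIG1: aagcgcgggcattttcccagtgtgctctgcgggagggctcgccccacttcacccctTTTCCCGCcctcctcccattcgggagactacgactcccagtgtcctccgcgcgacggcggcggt

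In metabolism, most genes of nucleotide synthesis were lower. Of 40 purine, pyrimidine and folate genes 28 were lower and 3 higher (median -0.74; 33 and 3 with equal array medians). *PFAS* of purine synthesis fell by 2.29 on the log2 scale. *ADSS1*, the muscle form of adenylosuccinate synthase, rose by 4.68. *SRM*, which makes spermidine, measured 12.10, 12.14 and 11.93 in untreated cells and 9.20, 9.63 and 9.58 under CHR-3996, and *SAT1*, which acetylates polyamines for export, measured 9.63, 9.76 and 9.79 against 12.76, 12.63 and 12.68. The 2 genes moved by -2.59 ± 0.14 and 2.96 ± 0.12 with no overlap (limma adjusted p = 2.6e-07 and 6.9e-08). *ARG2*, the mitochondrial arginase whose product feeds polyamine synthesis, rose by 4.34 ± 0.43, and *SLC38A5*, a glutamine transporter, fell by 2.90 on the log2 scale.

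Of 41 glucose genes 13 were higher, the same 31.7% as of all genes, and 12 were lower, which turned to 10 higher and 19 lower (median -0.27) with equal array medians. The alpha-arrestins *TXNIP* and *ARRDC4*, which restrain glucose uptake, rose, from 10.36, 9.84 and 10.09 to 13.37, 13.14 and 13.16 for *TXNIP* and from 7.66, 7.43 and 7.74 to 12.08, 11.34 and 11.44 for *ARRDC4*. Treated arrays lay above untreated ones throughout (3.12 ± 0.17 and 4.01 ± 0.33, limma adjusted p = 2.8e-07 and 3.3e-06). The glucose transporter *SLC2A1* fell by 1.30 and *HK2*, the hexokinase of proliferating cells, fell by 1.62 on the log2 scale. Cholesterol genes were higher in 17 of 31 and lower in 3 (median 0.43), led by *TM7SF2*, a sterol reductase, at 2.97 ± 0.14, but 8 were higher and 6 lower with equal array medians. Oxidative phosphorylation subunits moved little, with 4 of 66 higher, 19 lower and a median of -0.14, although 56 were lower with equal array medians.

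Of 7 tested metallothioneins, small proteins that bind zinc and copper, 6 were higher and 1 lower (4 and 1 with equal array medians). Without CHR-3996 replicate 1 the higher ones were 4. The lower one was *MT3*, the form of the brain (-0.28), which was not called when any single CHR-3996 array was left out. The whole list of 26 metallothionein and zinc transporter genes had 12 higher and 5 lower (6 and 9 with equal array medians). *MT2A* measured 9.34, 9.37 and 8.76 in untreated cells and 12.99, 12.01 and 12.27 under CHR-3996, *MT1H* 7.90, 7.78 and 7.68 against 11.59, 10.41 and 10.72, and *MT1G* 5.83, 5.94 and 5.26 against 8.98, 7.68 and 7.95. CHR-3996 replicate 1 was the highest array for all 3 genes, and no treated array overlapped an untreated one (3.27 ± 0.29, 3.12 ± 0.35 and 2.53 ± 0.40, limma adjusted p = 6.1e-06, 2.8e-05 and 3.7e-04). These genes are close copies, and their probes may read each other. *SLC30A4*, a zinc exporter into vesicles, rose by 2.36, and the zinc importers *SLC39A4* and *SLC39A8* fell by 1.83 and fell by 1.04 on the log2 scale. The list's median of 0.26 turned to -0.10 with equal array medians.

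Metallothionein promoters hold repeats of the metal response element TGCNCNC. This short pattern, searched on both strands, was in 62.0% of all promoters and in 11 of the 20 promoters of the list (55%). Of all promoters 3.38% held 4 or more copies, against 15% of the 20 promoters of the list. The 120 bases before the start of *MT2A* (chr16:56608464-56608583) and *MT1H* (chr16:56669694-56669813), both on the plus strand, are shown with its matches in capitals.
MT2A: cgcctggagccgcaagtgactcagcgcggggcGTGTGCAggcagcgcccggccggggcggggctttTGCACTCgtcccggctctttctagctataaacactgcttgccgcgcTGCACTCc
MT1H: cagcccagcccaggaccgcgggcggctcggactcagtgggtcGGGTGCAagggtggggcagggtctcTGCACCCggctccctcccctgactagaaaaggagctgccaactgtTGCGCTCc
Each stretch holds 3 matches.

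Among signalling genes, the calls in the immediate early and TGF beta lists were mostly upward. Of 45 AP-1, EGR, KLF and related genes 29 were higher and 2 lower (median 0.88). *FOS* measured 3.79, 4.66 and 4.49 in untreated cells and 8.19, 8.17 and 8.33 under CHR-3996, and its AP-1 partner *JUN* measured 7.93, 7.30 and 7.43 against 11.08, 10.71 and 11.07. *KLF9*, a glucocorticoid-responsive repressor, went from 6.19, 6.47 and 6.16 to 8.87, 8.98 and 8.95. The groups were apart in all 3 genes (3.92 ± 0.62, 3.40 ± 0.27 and 2.66 ± 0.13, limma adjusted p = 3.6e-04, 2.5e-06 and 1.8e-07). *ID1*, an inhibitor of helix-loop-helix factors, and *BATF3* fell by 0.90 and fell by 0.39 on the log2 scale. Of 46 TGF beta, BMP and activin genes 24 were higher and 4 lower (median 0.71). The rises covered a ligand (*BMP4*, 2.63), a latent TGF beta binding protein (*LTBP1*, 2.91), the signal transducer *SMAD3* (2.70) and the repressor *TGIF1* (3.20). *SMAD3* measured 5.50, 6.17 and 6.39 in untreated cells and 8.25, 9.28 and 8.63 under CHR-3996, without overlap, and *BMP7*, another ligand, fell by 1.40 on the log2 scale. With equal array medians the first list had 22 higher and 7 lower and the second 22 and 8.

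Among feedback regulators of signalling the balance depended on scaling. Of 21 MAP kinase phosphatase, Sprouty and Spred genes 11 were higher and 3 lower (8 and 6 with equal array medians, with the median moving from 0.40 to 0.04), with *DUSP10*, a phosphatase of p38 and JNK, at 2.84 ± 0.17 and *DUSP2*, an ERK phosphatase of immune cells, at -1.96 ± 0.12 (limma adjusted p = 5.2e-07 and 5.5e-07). *DUSP6*, the ERK phosphatase that serves as a readout of ERK activity, was not called (-0.44 ± 0.20, limma adjusted p = 0.097). Of 20 clock genes 12 were higher and 3 lower (median 0.72; 10 and 5 with equal array medians). The nuclear receptors *RORB* and *RORA*, which activate *BMAL1*, rose by 3.86 ± 0.18 and 2.80 ± 0.20, *PER2* fell by 1.57 ± 0.17 on the log2 scale and *CLOCK* was not called (-0.05 ± 0.13; limma adjusted p = 1.2e-07, 1.5e-06, 1.8e-05 and 0.807). Of 56 actin and small GTPase genes 26 were higher and 5 lower (18 and 13 with equal array medians), led by *GSN*, the actin-severing gelsolin, which measured 4.85, 5.77 and 5.24 in untreated cells and 8.86, 9.67 and 9.06 under CHR-3996. Its groups were apart (3.91 ± 0.33, limma adjusted p = 4.2e-06), on 1 of its 3 probe sets. Of 60 Rab and vesicle trafficking genes 31 (51.7%, beside 31.7% of all genes) were higher and 10 lower, against 23 and 20 with equal array medians. The median of the actin list (0.29) turned to -0.07 with equal array medians.

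The complexes through which HDACs act changed unevenly. Of 36 genes of HDAC corepressor complexes 17 were higher and 5 lower (8 and 13 with equal array medians), and the median of 0.33 turned to -0.03 with equal array medians. *GATAD2B* of NuRD rose by 2.29 while its relative *GATAD2A* fell by 1.01 on the log2 scale, and *MBD3* and *RBBP4* of the same complex fell by 1.18 and fell by 1.09. *REST* measured 9.81, 9.83 and 9.37 in untreated cells and 9.92, 10.18 and 9.96 under CHR-3996, a small difference that was not called (0.35 ± 0.16, limma adjusted p = 0.0941). Polycomb and DNA methylation genes were higher in 14 of 39 (35.9%, near the 31.7% of all genes) and lower in 13, which turned to 11 and 16 (median -0.21) with equal array medians. *CBX7*, a reader of the Polycomb mark, measured 6.12, 6.14 and 6.28 in untreated cells and 8.88, 8.63 and 8.90 under CHR-3996 (2.62 ± 0.20, limma adjusted p = 1.9e-06), and *EZH2*, the enzyme that writes the mark, fell by 0.43 ± 0.12 on the log2 scale (limma adjusted p = 0.00993). *PHF19*, which brings that enzyme to chromatin, fell by 2.75 on the log2 scale. Among SWI/SNF and other remodellers 11 of 43 were higher and 15 lower (6 and 24 with equal array medians), with *CHD7* at 1.65 and *HELLS*, a helicase of DNA methylation, at -1.71.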

How the data were processed

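RNA of 12 H929 samples (4 groups of 3) was amplified in 2 rounds and hybridised to Affymetrix U133 Plus 2.0 arrays. The authors normalised the arrays in dChip, and the deposited values are log2 expression per probe set, with many values at exactly 0 and a few below it; its version and probe summary are not stated in these sources. Groups followed the sample titles. limma 3.58.1 (R 4.3.3) was fitted to all 12 arrays with 1 mean per group, after 62 control probe sets and those outside the filter (40th percentile, 3 arrays) were left out. Of the tested probe sets 29161 had 1 gene symbol, 1365 several and 5869 none; only the first were named, with symbols updated through RefSeq (99.9% matched). A gene was read from its brightest tested probe set. Genes were named from a set given by a rule. It held the 12 largest changes each way, 8 genes crossing the 40th percentile each way and the cell type markers. Of each list it held the first gene and up to 5 called genes each way. Not every gene of the set is named in the text. Genes and lists were chosen with earlier results of these data known. The exceptions, named after their values were seen, are *IFI6*, *IFIT2*, *IFIT5*, *IFIH1*, *SAMD9L* and *IMP4*, *UTP4*, *CTSA*, *NEU1* and *LIG1*, the last 5 for their promoters. List counts are descriptions without a set test. The number of arrays limits the precision. On simulated data 89.7% of 4-fold and 48.3% of 2-fold changes were recovered for CHR-3996 against untreated cells (36395 probe sets). Each simulated run changed 200 probe sets, far fewer than were called in the data. The adjusted p-value depends on how many probe sets change, so these rates need not hold for this comparison. Same-numbered arrays correlated in their deviations at 0.04 to 0.12 for CHR-3996 and untreated cells, and at 0.19 to 0.23 for the combination and tosedostat. Among the pairs of groups checked, the numbers thus paired only the latter. Other pairs, such as CHR-3996 and the combination, were not checked over all probe sets. Promoters were found for 79.6% of genes, under 80%, so a check of base composition was void. Alternatives were quantile normalisation, equal array medians, other filters, a replicate block, a variance trend, 2 groups only, leaving out each array, averaged probe sets and the study's criteria on linear values.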

Additional observations from a re-analysis of the deposited data

Results flagged for a closer look

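In each of the following genes the change under CHR-3996 differed with and without tosedostat by the limma test of the difference (combination minus tosedostat, less CHR-3996 minus untreated; log2 scale, 3 arrays a group).

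Only genes of the naming rule or named in the text are given. The difference was negative in 13 of them, beside 38 among all genes tested. Among MHC class II genes it was -3.92 for *HLA-DPB1*, -3.48 for *HLA-DPA1*, -2.77 for *HLA-DQB1* and -1.92 for *HLA-DMA*, and the change stayed positive with tosedostat present in all 4 (2.09, 1.74, 1.85 and 2.17). Among interferon response genes it was -3.67 for *IFIT2*, -3.63 for *IFIT3*, -1.76 for *IFIH1*, a sensor of viral RNA, and -1.69 for *SAMD9L*. The chemokine gene *CCL4* (-2.80) rose by 5.18 without and by 2.39 with tosedostat. *FCRLA*, an Fc receptor-like protein of B cells (-2.10), had changes of 2.20 and 0.10. The activin subunit gene *INHBE* (-2.93) and *CTH*, which makes cysteine (-2.17), went from 2.22 and 1.57 without tosedostat to -0.71 and -0.61 with it. For the zinc transporter *SLC30A4* the difference was -0.88.

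The difference was positive in 1 of these genes, beside 5 among all genes tested. *UHRF1*, which guides DNA methylation to newly copied DNA, changed by -4.08 without and by -2.92 with tosedostat, a difference of 1.17.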

How the results depend on the processing

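Array scaling moved the counts of CHR-3996 against untreated cells more than any other change to the limma fit. On the deposited scale 10697 probe sets were higher and 5723 lower. With equal array medians these were 6896 and 11958, and quantile normalisation gave 9420 lower. The study's criteria on linear values gave 3104 and 1447. With tosedostat present 10340 were higher and 4979 lower, against 6401 and 10987 with equal array medians and 8570 lower after quantile normalisation. Leaving out 1 array gave 9340 to 10390 higher and 4925 to 5850 lower, and 9174 to 9502 and 4167 to 4495 with tosedostat present.

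The difference between both changes was less stable. Its 8 positive and 67 negative calls became 40 and 184 with the filter at the 60th percentile, 1 and 21 with no filter, 19 and 147 after quantile normalisation and 49 and 196 with a variance trend. With the replicate number as a block, which pairs the combination and tosedostat arrays, they became 42 and 189. The block moved no other of these probe set counts by over 1.5 times. Of the counts of genes per list, 9 moved beyond this limit and 103 did not. Leaving out 1 array gave 0 to 9 positive and 22 to 81 negative calls, with 22 reached without CHR-3996 replicate 2 and without combination replicate 3. Negative calls fell below 45 also without CHR-3996 replicate 3, combination replicate 2, any tosedostat array or untreated replicate 3.

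Of the named genes the sign of a called change turned for *MRPS28*, at -0.025 with equal array medians. The deposited values hold no signal over background, so what low levels limit is unknown.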
